A study of Mus musculus with 5 samples.

Results

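Neutrophils of the mouse kidney were followed through aristolochic acid I (AAI) injury in 5 droplet single-cell libraries. They were chosen by their own UMIs (unique molecular identifiers, 1 per captured RNA molecule). A barcode had to hold at least 200 genes and at most 30% mitochondrial UMIs, which left 60043 of 72896 deposited barcodes, called kept barcodes here. Of these, a neutrophil held at least 20 UMIs of S100a8 plus S100a9, at least 2 of Retnlg, Csf3r and Cxcr2 together, at most 1 of Cd3e, Cd3d and Cd3g, and at most 3 of C1qa, C1qb and C1qc. The rule found 153 cells, 0.255% of the kept barcodes, with 391514 UMIs in all. Because these genes selected the cells, their levels are a description, and so is every difference between neutrophils and the other cells.

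All mice were male wild-type C57BL/6 of 8 to 10 weeks. The 2 AKI (acute kidney injury) libraries came from kidneys taken at week 2, after AAI at 3 mg/kg into the peritoneum every 3 days. The 2 CKD (chronic kidney disease) libraries came from week 4, after the same course and then 2 weeks without AAI. The study describes the control, a single library, as baseline, taken here as week 0. Its methods also say that control mice were given vehicle in parallel with AAI, so the time of this library is not certain. AAI is a plant nephrotoxin that damages the proximal tubule. Nothing in the labels says whether a library was 1 mouse, so p-values measure the spread between libraries, and the control has no replicate. AKI differs from CKD in time as well as in AAI exposure.

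Neutrophils are short-lived granulocytes made in the bone marrow, where they fill azurophil, specific and gelatinase granules in that order and then shut down most granule genes. In blood they carry receptors for chemokines, complement and formyl peptides, and in tissue they release proteases, oxygen radicals, cytokines and chromatin traps. They hold little RNA, and in injured kidney they are among the first cells to arrive.

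The 2 calprotectin subunits, S100a8 and S100a9, took a median of 7.52% to 13.9% of a neutrophil's UMIs in the 5 libraries. S100a9 stood at 799 UMIs per 10000 in the control, 544 and 719 in AKI 1 and 2, and 442 and 709 in CKD 1 and 2. S100a8 stood at 549, 338, 410, 275 and 421 in the same order. In all other kept barcodes each of them lay between 0.027 and 0.145 per 10000, and 1.26% to 2.83% of T lymphocytes (at least 2 Cd3 UMIs) held a UMI of either, cells that should lack them. The 2 genes are neighbours on chromosome 3 (GRCm39, S100a8 at chr3:90567118-90578128 on the plus strand and S100a9 at chr3:90599931-90603071 on the minus strand).

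Retnlg, which encodes a resistin-like protein, stood at 55.2 in the control, 51.0 and 80.8 in AKI, and 78.1 and 88.6 in CKD. Csf3r, the G-CSF receptor, ranged from 14.4 to 17.95, and Cxcr2, the receptor for Cxcl1 and Cxcl2, from 2.56 to 6.73. In a further 29 kept barcodes S100a8 plus S100a9 reached 20 UMIs without meeting the rest of the rule. Of these, 13 had under 2 receptor UMIs, 14 were over the Cd3 limit and 2 only over the C1q limit. Just inside the rule, the lowest S100a8 plus S100a9 counts were 23 in AKI 1, 24 in CKD 1 and 25 in AKI 2, against 56 in the control and 64 in CKD 2. Just outside, with the other conditions met, the highest were 18 for each AKI library, 17 for CKD 1 and 9 for CKD 2.

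**Figure D1:**
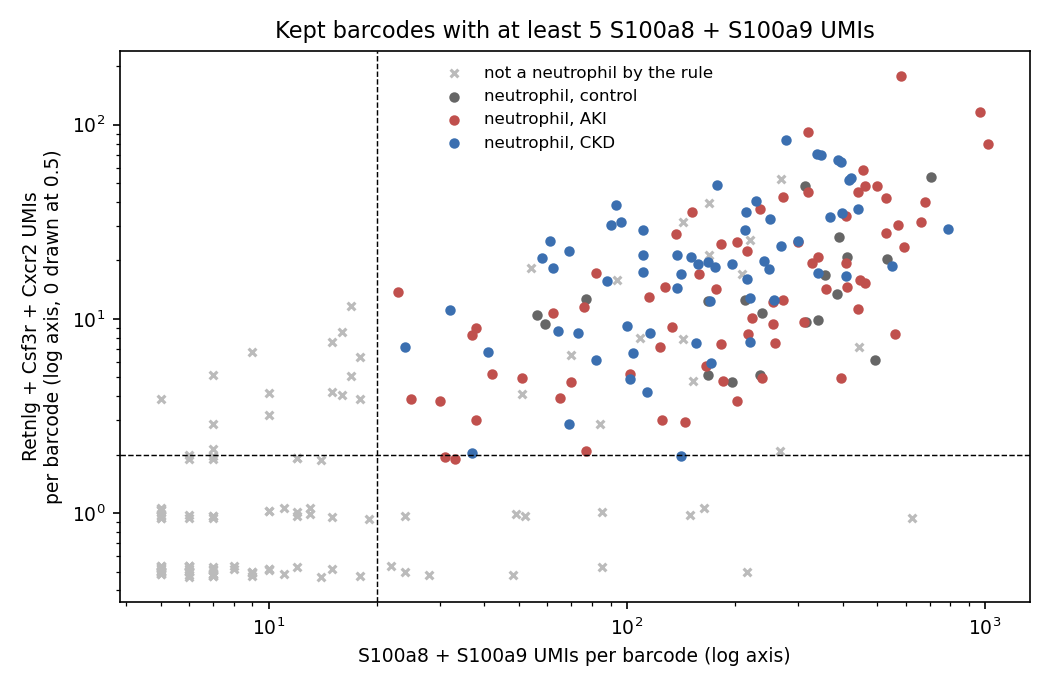
Each point is a kept barcode with at least 5 UMIs of S100a8 plus S100a9 (x axis, UMIs, log axis) against its UMIs of Retnlg, Csf3r and Cxcr2 (y axis, log axis, with 0 drawn at 0.5 and a small jitter). Dashed lines mark the limits of 20 and 2 UMIs, coloured points are the 153 neutrophils by group, and crosses to the upper right of both lines are barcodes over the Cd3 or C1q limit.

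Genes that the rule did not read matched the name. From a list of 14 other neutrophil identity genes, each had at least 8 UMIs over the 153 cells. Hdc, the histamine-forming enzyme, was found in 138 of them (90.2%) against 1.21% of T lymphocytes, and the decoy receptor Il1r2 in 143 (93.5%) against 3.63%. Clec4d, a C-type lectin receptor, was found in 145 (94.8%) against 0.89%. Other genes of the list were in fewer neutrophils, among them Asprv1 in 68 (44.4%), Stfa2l1 in 61 (39.9%) and Mmp8 in 39 (25.5%). Median depth was 1861 to 2619 UMIs per neutrophil and 3533 to 5864 per T lymphocyte, so the neutrophils were the shallower cells in each library. Ly6g, the surface antigen used to sort mouse neutrophils, gave only 8 UMIs in 6 cells.

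Markers of most other blood cells were at or near 0. All 7 genes of eosinophils, basophils and mast cells were at 0, as were 6 of 7 dendritic genes, 7 of 8 erythroid and platelet genes and Cx3cr1. The 8 monocyte genes summed to 1.02 to 1.88 per 10000. The study named its own neutrophils from Lyz2, Hp and F13a1. Of these, F13a1, the factor XIII A chain, gave 1 UMI in all 153 cells. Lyz2, lysozyme, stood at 13.1 to 21.8 per 10000 in neutrophils and on average at 74.9 in macrophages (at least 10 C1q UMIs, at most 1 Cd3 UMI). Hp, haptoglobin, stood at 8.10 to 24.7 in neutrophils and on average at 0.028 in macrophages.

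RNA of kidney and macrophage genes was present and differed between libraries. The 10 proximal tubule genes summed to 19.5 per 10000 in control neutrophils, 13.3 and 14.001 in AKI, and 56.5 and 6.17 in CKD, against 22.6, 17.6, 17.4, 35.1 and 6.58 in T lymphocytes of the same libraries. In CKD 1 the sum in all other kept barcodes, which include tubule cells, was 56.0, close to that in the summed neutrophils. The median CKD 1 neutrophil stood at 26.9 and the highest at 356, so the sum is not that of a typical cell. The 7 distal tubule and collecting duct genes summed to 24.3 in the control, 9.54 and 6.46 in AKI, and 46.2 and 2.24 in CKD. In T lymphocytes they summed to 32.7, 12.8, 7.19, 19.8 and 3.43 in the same order, and in all other kept barcodes of CKD 1 to 39.6. For this list the median CKD 1 neutrophil stood at 11.6 and the highest at 252. The 10 macrophage genes summed to 2.62, 11.9 and 10.4, and 4.80 and 4.86, against 5.03, 18.7, 26.9, 10.6 and 4.99 in T lymphocytes. At least 2 UMIs over the T, B and macrophage lists were held by 3 control neutrophils, 31 and 24 in AKI, and 14 and 6 in CKD, 78 of the 153 in all. For the macrophage list the AKI libraries were highest in both cell types, and for the proximal tubule list CKD 1 was highest in both. Mitochondrial genes took 7.10% of neutrophil UMIs in the control, 4.54% and 3.79% in AKI, and 7.91% and 0.944% in CKD, so CKD 2 stood apart.

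Single cells stood apart. In AKI 1, 1 cell with 10248 UMIs held 27 of Plvap and 19 of Emcn, which are endothelial genes, and in CKD 1, 1 cell with 12562 UMIs held 194 of the 232 Umod UMIs of that library. They are 2 of 5 cells with at least 20 UMIs over the tubule and endothelial lists. No doublet caller was run here. No barcode was a neutrophil in 2 libraries, and 4 neutrophils had a barcode that was kept in another library. The control and CKD 2 shared 132 kept barcodes, against at most 64 in any other pair, and none of the 132 was a neutrophil.

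Neutrophils were 0.207% of kept barcodes in the control (19 of 9168, exact 95% binomial interval 0.125 to 0.323%). They were 0.384% in AKI 1 (43 of 11203, 0.278 to 0.517%) and 0.258% in AKI 2 (28 of 10852, 0.172 to 0.373%). They were 0.212% in CKD 1 (41 of 19314, 0.152 to 0.288%) and 0.231% in CKD 2 (22 of 9506, 0.145 to 0.350%). Both CKD shares lay below both AKI shares, by 0.0991 percentage points on the mean (0.222% against 0.321%). Without AKI 1 the difference was -0.0362 and without AKI 2 it was -0.162 percentage points. With 2 libraries against 2, an exact two-sided permutation test cannot go below p = 0.333, so no test was made, and the intervals cover counting error only. The order did not hold under 3 other settings. At 1000 UMIs per barcode the shares were 0.346% and 0.229% in AKI and 0.202% and 0.252% in CKD. With at least 50 UMIs of S100a8 plus S100a9 they were 0.330% and 0.2304% in AKI and 0.192% and 0.2314% in CKD. Of kept barcodes without T lymphocytes, neutrophils were 0.991% and 0.654% in AKI and 0.399% and 0.765% in CKD, and 0.241% in the control, so the groups overlapped under each of these. A further 6 barcodes met the gene rule but were over the mitochondrial limit.

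**Figure D2:**
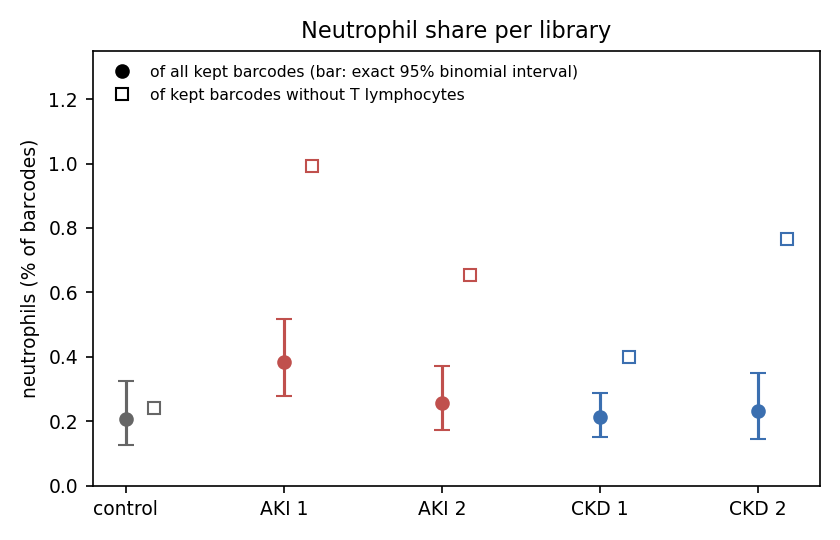
Neutrophils as a percent of kept barcodes (filled circles, bars are exact 95% binomial intervals) and as a percent of kept barcodes without T lymphocytes (open squares) in each of the 5 libraries. The filled circles run from 0.207% in the control to 0.384% in AKI 1, and the open squares of AKI and CKD overlap.

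Levels below are UMIs per 10000 UMIs of the summed neutrophils of a library, from 3' tags and so not scaled by gene length. Granule genes differed widely in level. Of 6 azurophil genes, Elane, Prtn3, Ctsg and Ms4a3 were at 0, and Mpo and Prss57 gave 1 UMI each. Of the 10 specific granule genes, Lcn2, the siderophore-binding lipocalin, was the broad one, at 8.57 in the control, 10.1 and 15.5 in AKI, and 13.4 and 14.8 in CKD.

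Ngp and Camp, which encode precursor-stage granule peptides, came almost whole from a single cell. In AKI 2, 1 cell with 4140 UMIs held 116 of the 118 Ngp UMIs, 48 Camp and 11 Ltf (lactoferrin) UMIs, and 23.4% of its UMIs were S100a8 and S100a9. Without it Ngp stood at 0.285 per 10000 in AKI 2. The control held 5 Ngp UMIs, CKD 1 held 1, and neither AKI 1 nor CKD 2 held any; no other library held Camp.

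Gelatinase granule and protease inhibitor genes were the main granule transcripts. Slpi, which inhibits neutrophil elastase, stood at 35.7 in the control, 30.0 and 53.0 in AKI, and 27.6 and 35.3 in CKD. Over the 5 libraries together, 25.03% of all its UMIs lay in the 153 neutrophils. By library this was 66.1% in the control, 41.9% and 30.9% in AKI, and 18.4% and 11.3% in CKD. Asprv1, an aspartic protease, stood at 12.1, then 15.9 and 7.67, then 14.2 and 14.03, with 64.0% of its UMIs in neutrophils. For Wfdc21, a WAP-domain protein, that share was 75.8%. For Stfa2l1, a stefin (cathepsin inhibitor), it was 86.7%. Stfa1, Stfa2, Stfa2l1 and Cstdc4 lie close together on chromosome 16 (Stfa2l1 at chr16:35977176-35982332 of GRCm39) and are near copies, so reads may be split between them. The collagenase Mmp8 stood at 1.09 to 2.96 and the gelatinase Mmp9 at 4.05 to 6.06.

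Among receptors, Tyrobp and Fcer1g, the signalling adaptors of many of them, stood at 46.4 to 75.6 and 15.1 to 21.7. Cd14, the lipopolysaccharide co-receptor, stood at 21.9 in the control, 16.5 and 28.8 in AKI, and 8.63 and 21.7 in CKD. Clec4e, the receptor Mincle, stood at 13.003 to 21.1. Trem1, which amplifies inflammatory signalling, stood at 7.67 to 16.6 and had 29.1% of its UMIs in neutrophils. By library this was 82.6% in the control, 38.0% and 24.9% in AKI, and 22.3% and 26.6% in CKD. Of the adhesion and chemoattractant receptors, Cd44 stood at 12.04 to 16.3, Ccr1 at 6.64 to 14.4, Ccrl2 at 6.50 to 13.7 and Selplg, the ligand of selectins, at 4.05 to 7.67. Cxcr4, the receptor of marrow return and ageing, stood at 2.43 to 4.17. The CKD over AKI difference for Cxcr4 was -0.42 (SE 0.38) on the log2 scale and did not pass the test described below.

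Cxcl2, the chemokine that Cxcr2 binds, was the leading cytokine transcript. It stood at 165 in the control, 156 and 198 in AKI, and 126 and 209 in CKD, on average 5.41 in all other kept barcodes and 36.0 in macrophages. It was found in 150 of 153 neutrophils (98.0%) against 21.8% of T lymphocytes. Il1b stood at 39.8, then 47.9 and 45.9, then 33.0 and 40.0, and on average at 8.91 in macrophages. The neutrophils were 0.255% of kept barcodes and held 2.71% of all Cxcl2 and 2.12% of all Il1b UMIs. By library the Cxcl2 share was 8.84% in the control, 3.69% and 1.84% in AKI, and 2.00% and 2.99% in CKD. For Il1b it was 3.87%, then 4.06% and 1.31%, then 1.69% and 1.54%.

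The interleukin-1 decoy receptor Il1r2 stood at 8.57 in the control, 17.0 and 24.0 in AKI, and 14.2 and 32.7 in CKD. It had 15.9% of its UMIs in neutrophils, by library 35.3% in the control, 26.3% and 19.7% in AKI, and 10.1% and 11.6% in CKD. The chemokine Ccl6 stood at 13.3 to 32.7. Several inflammatory genes that macrophages carried were low. Ccl4 stood at 2.14 to 6.96 in neutrophils and on average at 92.6 in macrophages, Tnf at 0.13 to 1.09 against 4.11, and Il6 gave no UMI in 391514, which allows up to 3.

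Of the NADPH oxidase, which makes superoxide, the cytosolic subunit gene Ncf1 stood at 2.81 to 4.53, Cyba at 8.33 to 15.3 and Rac2 at 6.17 to 9.42. Cybb, its catalytic subunit, stood at 0.24 to 0.85 in neutrophils and on average at 5.91 in macrophages. Cebpb, a transcription factor of emergency granulopoiesis, stood at 53.9 to 78.8 and Mxd1 at 17.4 to 27.7. Cebpe and Gfi1, which act in precursors, gave 2 UMIs each.

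The survival gene Mcl1 stood at 15.01 to 31.0. The ferritin chains stood at 235 to 350 (Fth1) and 60.5 to 83.6 (Ftl1), and the NF-kappaB inhibitor Nfkbia at 27.5 to 44.9. Cell cycle genes other than Hmgb2 gave at most 20 UMIs each, and Siglecf, a marker of aged tissue neutrophils in tumours, gave 5. Cytosolic ribosomal protein genes took 4.13% to 6.06% of neutrophil UMIs, against 10.3% to 25.6% in all other kept barcodes.

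Of 30 interferon-stimulated genes, 1 (Usp18) was at 0. Ifitm2 stood at 23.3 to 42.5 and Ifitm3 at 3.55 to 8.36, and Isg15 at 2.62 to 6.02. MHC class II genes, which present antigen in other cells, summed to 2.86 in the control, 7.66 and 11.6 in AKI, and 5.86 and 4.49 in CKD, against 13.2, 26.9, 39.1, 31.9 and 22.9 in T lymphocytes of the same libraries.

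**Figure D3:**
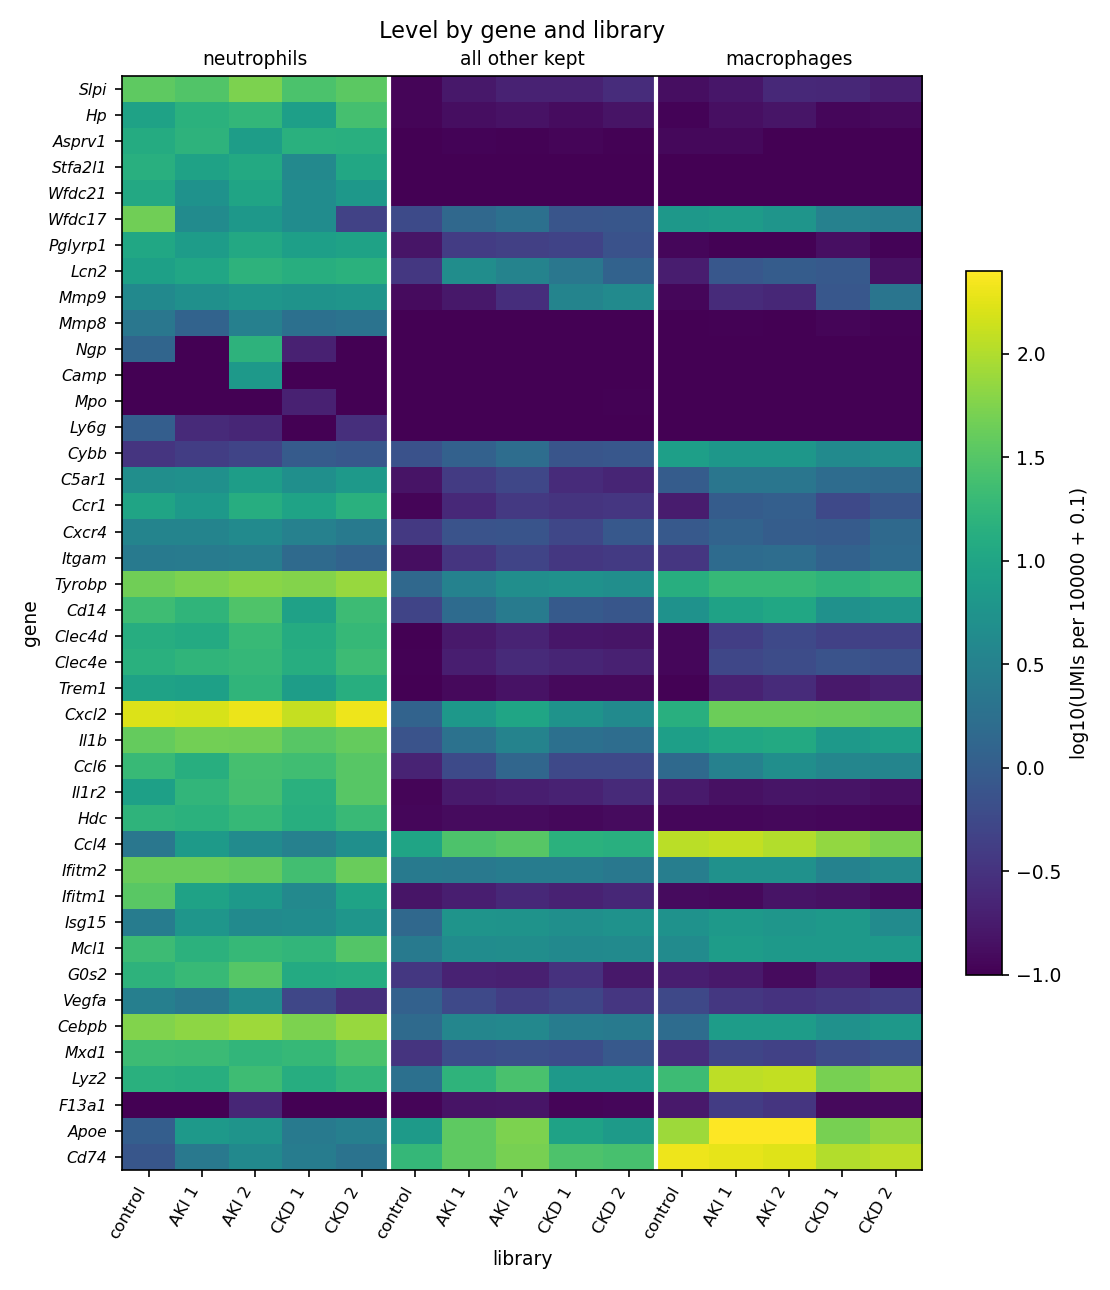
Level of selected genes (rows) in neutrophils, all other kept barcodes and macrophages of the 5 libraries (columns), as log10 of UMIs per 10000 plus 0.1. Slpi to Wfdc21 are bright in neutrophils and dark elsewhere, Ngp and Camp are bright in AKI 2, Mpo and F13a1 are dark in neutrophils, and Ccl4, Lyz2, Apoe and Cd74 are brightest in macrophages.

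S100a8 and S100a9, which the rule read, were highest in the control. Another 2 genes in which control neutrophils stood apart are given here, singled out after their values were seen. These differences have no test, as the control is 1 library, and its file was exported differently from the others. Wfdc17, a WAP-domain gene, stood at 46.2 in the control (194 UMIs, exact 95% Poisson interval 39.9 to 53.2, in 15 of 19 cells). It stood at 4.22 and 6.46 in AKI and at 4.37 and 0.37 in CKD. Ifitm1 stood at 33.6 in the control (141 UMIs, 28.3 to 39.6, in 13 of 19 cells), then at 8.91 and 6.87, and at 3.94 and 9.16. For both genes the control lay above the other 4 libraries, which overlapped between AKI and CKD, and it stayed above them without its highest cell (40.2 and 29.2). In macrophages Wfdc17 stood at 6.44 in the control and 2.72 to 7.15 in the others. The 33 control UMIs of Stfa2 came from 1 cell.

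The 153 cells were not uniform. With cells thinned to 1000 UMIs (151 cells, 2 shallower ones left out), the ratio of variance to mean within libraries, which is 1 for counting error alone, had a median of 1.17 over 702 genes with at least 30 UMIs and was over 2 for 72 of them. S100a9 (22.4) and S100a8 (15.9), Fth1 (11.8), the nuclear RNA Malat1 (10.8), Retnlg (9.23) and Cxcl2 (7.79) had high ratios, as did mitochondrial genes such as mt-Co3 (11.7). For Ngp (29.4) and Umod (5.45) the ratio fell to 0.98 each without the highest cell, and for Gpx3 from 3.64 to 1.07. Wfdc17 (6.33), Asprv1 (5.94) and Stfa2l1 (5.92) were carried by 40, 53 and 47 of the thinned cells, and without the highest cell still gave 5.87, 4.78 and 4.18.

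Some of these genes varied together. Between S100a9 and Retnlg the rank correlation across thinned cells was 0.50 on average over the 5 libraries (0.30 to 0.62). Retnlg and Malat1 gave -0.44 (-0.73 to -0.08). The stefins Stfa2l1 and Cstdc4 gave 0.49 (0.20 to 0.62). All cells of a library share its preparation, thinned counts of a cell compete for the same 1000 UMIs, and S100a9 and Retnlg were read by the rule, so these values describe the cells and carry no test.

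To ask whether neutrophils of the CKD stage differed from those of the AKI stage, UMIs were summed per library and 1173 genes were tested with edgeR's quasi-likelihood test. No gene passed an adjusted p of 0.05 (0 of 1173, 0%), and the smallest adjusted p was 0.998. At an unadjusted p under 0.05 there were 35 genes (2.98%), 16 higher and 19 lower in CKD. DESeq2 called 0 genes and gave 9 at an unadjusted p under 0.05. The libraries of the groups did not overlap for 366 genes (31.2%).

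The error was wide. How much of it came from depth and how much from the spread between libraries was not tested. A tested gene had a median of 83 UMIs over the 4 libraries and a median SE of 0.43 on the log2 scale, and for only 220 of 1173 genes did the 95% interval lie within a log2 change of 1 either way. For Cxcl2 the log2 change was -0.08 (SE 0.29, interval -0.78 to 0.61) and for Il1b -0.35 (SE 0.25, -0.95 to 0.25). For Mmp9 it was 0.06 (SE 0.30, -0.66 to 0.78) and for Slpi -0.39 (SE 0.34, -1.20 to 0.42). These intervals hold 0 and leave room for changes of over 1.5-fold.

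The count rested on which CKD library was used. Without CKD 1, edgeR called 30 genes, of which 1 was higher, and 11 of the 30 were mitochondrial. Without CKD 2 it called 38, of which 26 were higher, Umod, Fxyd2 and Gpx3 of the tubule among them. In both cases the lone CKD library was assumed to vary like the AKI pair. Both times 10 genes were called. Of these, 5 were lower in CKD both times (Vegfa, Ngp, Camp, Hsd11b2 and S100g) and 5 turned direction (Mt1, Spp1, mt-Co1, mt-Nd4l and mt-Nd5). Both fits used the same AKI pair, so they are not separate checks. In AKI 2, 1 cell held 116 of the 118 Ngp UMIs and 48 of the 49 Camp UMIs. The genes of this paragraph were singled out after their values were seen.

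No gene passed, so the genes with the smallest unadjusted p are given as values. They are the 5 in each direction whose groups did not overlap and whose neutrophil level in the higher group was at least 2 times that of the other kept barcodes, and none passed the test. Vegfa, the vascular endothelial growth factor A gene (GRCm39 chr17:46327919-46343309, minus strand), stood at 2.19 and 4.31 in AKI and at 0.43 and 0.19 in CKD, with 2.86 in the control. These are 28 and 32 UMIs against 4 and 1, and the control had 12. The log2 difference was -3.15 (SE 0.65, 8.88-fold lower, edgeR unadjusted p = 0.0019, adjusted p = 0.998).

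Vegfa UMIs were spread over cells, in 15 of 43 and 13 of 28 AKI neutrophils, 4 of 41 and 1 of 22 CKD neutrophils, and 8 of 19 in the control. At 1000 UMIs per cell the shares with a Vegfa UMI were 26.8% and 21.4% in AKI, 4.88% and 4.55% in CKD and 26.3% in the control. In unthinned T lymphocytes they were 6.19% and 4.61% at the AKI stage, 8.13% and 4.57% at the CKD stage, and 9.90% in the control. T lymphocytes are deeper, so these shares are not on 1 scale. Per 10000 UMIs, Vegfa stood at 0.19 and 0.14 in AKI, 0.22 and 0.096 in CKD and 0.36 in control T lymphocytes, below the neutrophil level of the same library each time.

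The other 4 lower genes differed by less than Vegfa. G0s2, an inhibitor of lipolysis and a neutrophil marker, stood at 19.8 and 32.2 in AKI and 11.8 and 12.5 in CKD, a log2 difference of -1.07 (SE 0.32). In the control it stood at 15.9. Ifrd1, a transcriptional regulator of neutrophil function, stood at 9.69 and 13.6 against 5.65 and 5.05 (log2 -1.08, SE 0.31). Bcl2l11, which encodes the death-promoting protein Bim, stood at 3.44 and 3.37 against 1.39 and 1.496 (log2 -1.21, SE 0.38), with 3.09 in the control. Clec4n, the fungal receptor Dectin-2, had 18 and 11 UMIs, in 12 and 7 cells, against 2 and 2 UMIs, in 2 and 2 cells, and none in the control. At 1000 UMIs per cell it was found in 3 of 41 and 2 of 28 AKI neutrophils and in 2 of 41 and 0 of 22 CKD neutrophils. Without the cells that held kidney RNA it was too low to be tested.

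In the other direction the 5 log2 differences ran from 0.64 to 1.09. Ccl3, a macrophage inflammatory chemokine, stood at 2.66 and 3.37 in AKI and 4.05 and 8.04 in CKD (log2 0.98, SE 0.40), and in macrophages at 24.0 and 21.1 against 9.71 and 9.64. Atp2b1, a plasma membrane calcium pump, stood at 3.75 and 3.63 against 7.46 and 5.98 (log2 0.90, SE 0.33). Rhov, a small GTPase gene, stood at 1.17 and 1.21 against 2.56 and 2.43 (log2 1.09, SE 0.40). Syf2, a splicing factor gene, gave log2 0.93 (SE 0.37) and Jund, an AP-1 subunit gene, 0.64 (SE 0.26).

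**Figure D4:**
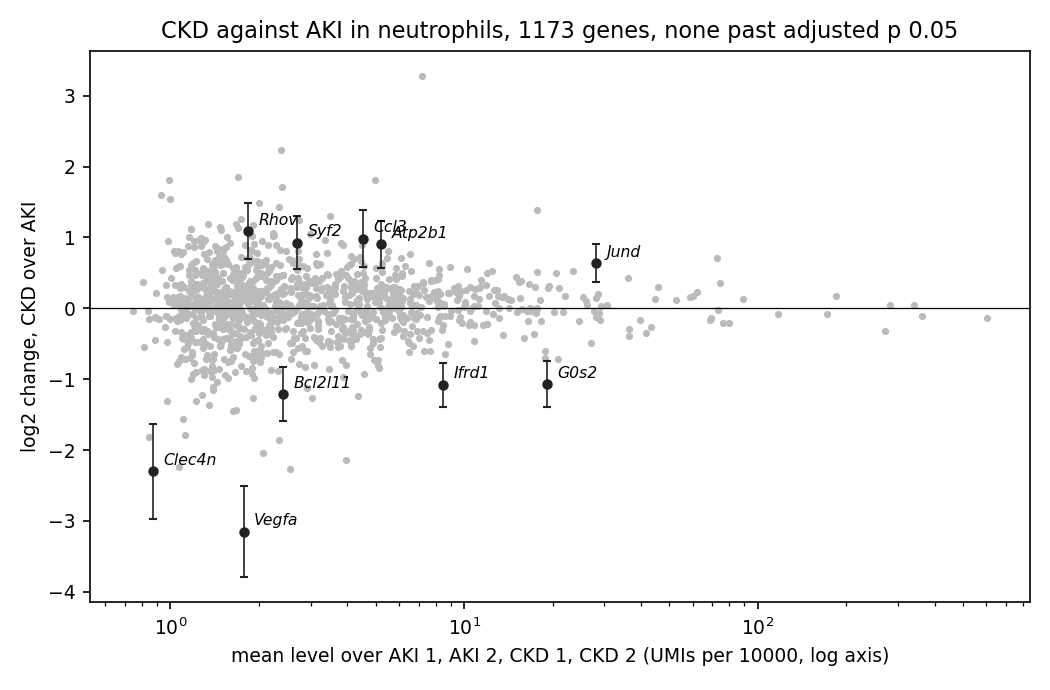
Log2 change of CKD over AKI (y axis) against the mean level over the 4 libraries (x axis, UMIs per 10000, log axis) for the 1173 genes tested in neutrophils. Black points with bars are the 10 named genes with their standard errors, none of which passed the adjusted test, and Vegfa lies lowest at -3.15.

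No list of neutrophil genes had a called member, against 0% of all genes tested, whose median log2 change was 0.05. The chemoattractant and adhesion receptors (12 tested, 9 of them lower in CKD) had a median of -0.34 and the gelatinase granule and inhibitor genes (10 tested, 8 lower) -0.24. The cytokines (14 tested, 8 lower) had a median of -0.22, the activating and inhibitory receptors (15 tested, 8 lower) -0.02, and the immediate-early genes (19 tested, 9 lower) 0.06. The 4 tested MHC class II genes had a median of -0.92, with all 4 lower, and the 2 tested macrophage genes, Apoe and Cd81, one of -0.97. The 3 tested distal tubule genes had a median of 1.81. The sums of the MHC class II and macrophage lists in T lymphocytes, given above, also differed between libraries, and the part of RNA from other cells in these values was not tested.

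To ask whether neutrophils moved unlike macrophages, the CKD over AKI change in macrophages was subtracted in 1 edgeR fit with the library as a block. Of 10897 genes 3 passed (0.0275%), with 248 (2.28%) at an unadjusted p under 0.05, and DESeq2 called 0. The edgeR fit left 2 residual degrees of freedom per gene, so its p-values rest mostly on a spread between libraries shared over genes. For Mmp9 the neutrophils hardly differed (4.92 and 6.06 in AKI, 5.44 and 5.80 in CKD), while macrophages stood at 0.16 and 0.14 against 0.75 and 2.03. In all other kept barcodes, which include these macrophages, Mmp9 stood at 0.063 and 0.179 in AKI and at 3.31 and 4.12 in CKD. In CKD these levels lay above those of the macrophages, so cells outside the C1q rule also held Mmp9. Which cells held it was not tested, and the study reports Mmp9 as enriched in its scar-associated macrophages. Between neutrophils and macrophages the difference of changes was -3.06 on the log2 scale (SE 0.47, adjusted p = 1.27e-06 in edgeR). With macrophages of at least 20 C1q UMIs it was -1.39 (edgeR adjusted p = 0.981), and it also did not pass in DESeq2 (0.237) or in edgeR without AKI 1 (0.083) or AKI 2 (0.0794).

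For Vegfa the neutrophil values above stood against 0.25 and 0.22 in AKI and 0.25 and 0.31 in CKD macrophages. The difference of changes was -3.52 (SE 0.80, adjusted p = 0.0402 in edgeR). It did not pass in DESeq2 (adjusted p = 1.00), in edgeR with every gene of at least 1 UMI (adjusted p = 0.158) or without any 1 of the 4 libraries (edgeR adjusted p 0.0618 to 1.00), and its sign held in each of these fits. For Umod, the tubular protein uromodulin, the difference of changes was 2.87 (SE 0.53, adjusted p = 0.00029 in edgeR). Without the 5 cells that held kidney RNA it was 0.93 with an adjusted p of 1.00, and the CKD 1 level of 24.7 became 4.68 without its highest cell.

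**Figure D5:**
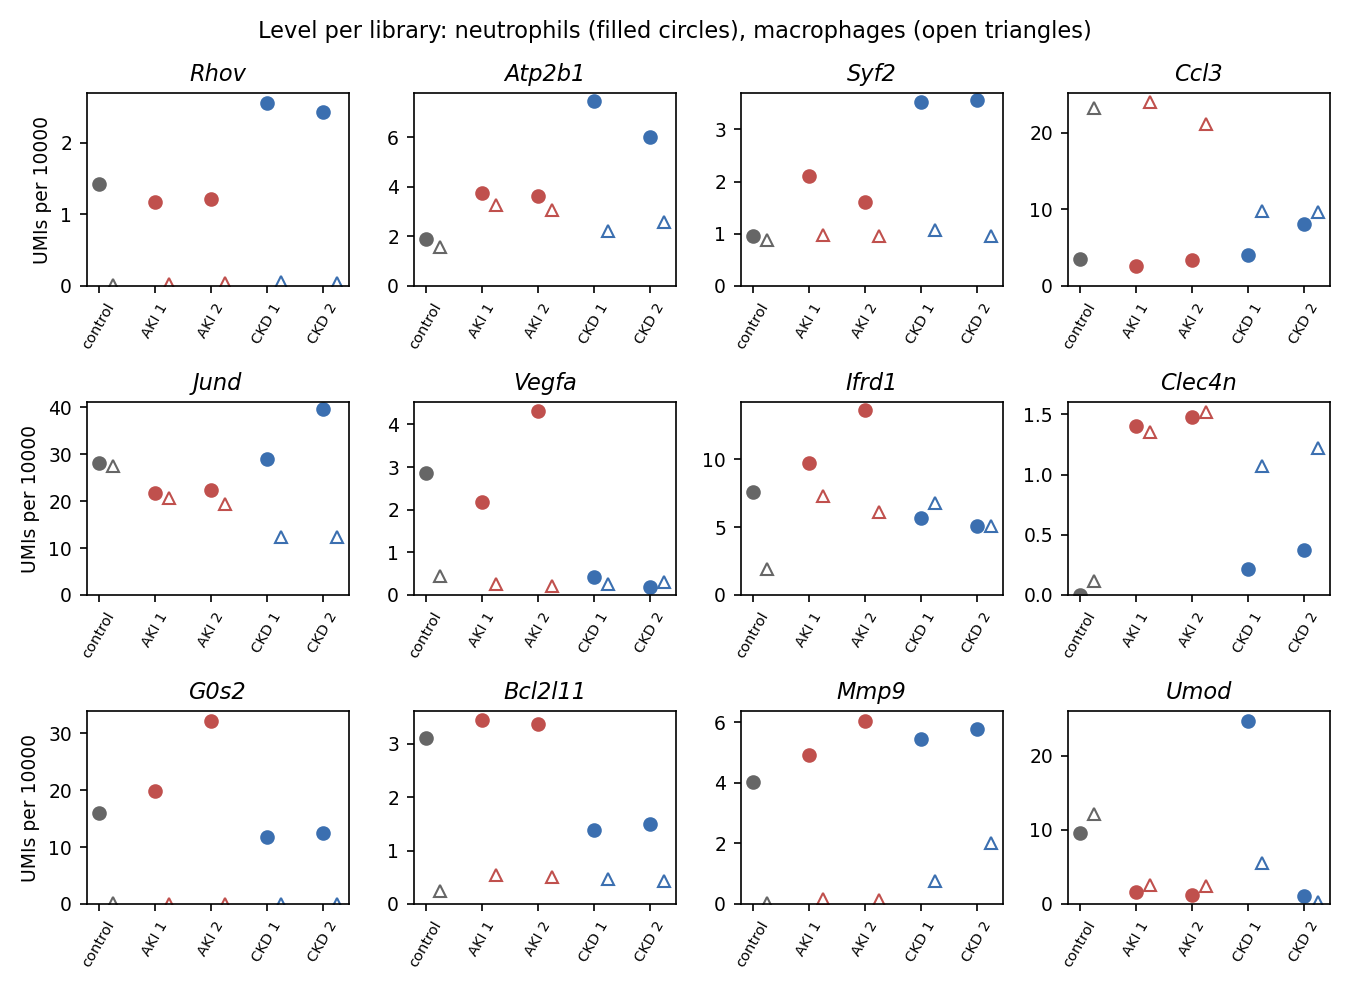
Level in UMIs per 10000 (y axis, from 0) in each library (x axis) for the 10 named genes and for Mmp9 and Umod, in neutrophils (filled circles) and macrophages (open triangles). Vegfa in neutrophils is at 2.19 to 4.31 in the control and AKI libraries and at 0.43 and 0.19 in CKD, Mmp9 in neutrophils is level while macrophages are higher in CKD, and the Umod value of CKD 1 stands alone.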

How the data were processed

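Single-cell suspensions of mouse kidney in 5 libraries (1 control, 2 AKI, 2 CKD) were profiled as 3' droplet libraries. The deposited matrices hold raw UMI counts per gene and barcode, made by the authors with Cell Ranger 7.2.0 (STAR) on GRCm39 per the submitters' processing notes. The AKI and CKD matrices themselves carry an older Cell Ranger version in their first lines, and the control matrix was exported again from another program with a gene list that names an earlier mouse build, so its pipeline may differ. The study then removed ambient RNA and doublets, and neither step is in these counts. Here barcodes with at least 200 genes and at most 30% mitochondrial UMIs were kept, and neutrophils were found by the gene rule given above. The members and gene lists were chosen with earlier results of these data known. UMIs were summed per library and tested with edgeR 4.0.16 in R 4.3.3 (limma 3.58.1; TMM, filterByExpr, quasi-likelihood test, Benjamini-Hochberg adjustment, threshold 0.05), with DESeq2 1.42.0 as an alternative. The comparison with macrophages used 1 fit over both cell types with the library as a block. Python 3.11.15, NumPy 2.4.6 and SciPy 1.17.1 gave the rest, and the scripts were tested on simulated data.

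Named genes were those called, or else the 5 with the smallest p in each direction under the conditions given with them, the genes of the rule, and up to 4 members of each neutrophil list with the highest mean level. Other genes named were chosen after their values were seen. Intervals and floors cover counting error only. Neutrophil sums held 42009 to 127929 UMIs per library. Coordinates are from the GRCm39 annotation, matched by gene ID. Alternatives were other tools, size factors, filters, member rules, denominators and leaving out each library.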

Additional observations from a re-analysis of the deposited data

Results flagged for a closer look

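In 3 genes the CKD over AKI difference in neutrophils differed from that in macrophages by the edgeR test of the difference itself. For Mmp9 the neutrophil change less the macrophage change was -3.06 on the log2 scale, for Vegfa it was -3.52, and for Umod it was 2.87. DESeq2 called none of the 3.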

How the results depend on the processing

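The number of genes called between CKD and AKI neutrophils (0) was 10 when every gene with at least 1 UMI was tested, and ranged from 0 to 38 when each library was left out, with 30 without CKD 1, 38 without CKD 2 and 0 without either AKI library. The other 12 alternatives gave 0. Among them, leaving out cells with at least 2 UMIs of other immune cells kept 12 and 4 cells in AKI and 27 and 16 in CKD. With so few cells that fit could hardly call a gene. Same-numbered AKI and CKD libraries deviated together with a correlation of 0.35 over 1173 genes, but with 2 pairs they share only a number, and with the replicate block 0 genes were called (58 at an unadjusted p under 0.05). The number called against macrophages (3) was 0 with DESeq2, 5 with macrophages of at least 20 C1q UMIs, 7 with at least 50 S100a8 and S100a9 UMIs, 5 without the cells holding kidney RNA, and 0 to 15 when each library was left out (0 without AKI 1, 1 without AKI 2, 15 without CKD 1, 11 without CKD 2). The CKD less AKI share was -0.241 percentage points among barcodes without T lymphocytes. Vegfa in neutrophils passed with every gene tested (edgeR adjusted p = 0.00141) and without CKD 1 (0.000161) or CKD 2 (0.00373), and its log2 change ran from -4.06 to -2.66. The cause of these shifts was not tested. Leaving out cells with kidney RNA or with precursor granule genes was chosen after seeing the data. The comparison is imprecise: the 95% interval lay within a log2 change of 1 either way for 220 of 1173 genes.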
